A study of Mus musculus with 4 samples.

Results

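The DNA replication machinery of mouse leukaemic cells was followed through 40 genes: the subunits of the replicative helicase and its loaders and activators, the sliding clamp and clamp loader, the polymerases and primase, the factors of lagging strand synthesis, the enzymes of deoxynucleotide supply, and the cyclins and E2F factors of S phase entry. The genes were taken by name from 24497 mouse genes in the deposited expression table. All 40 were found and passed the filter on low values, at least 1 TPM in at least 2 libraries, that left 11919 genes to test. In a dividing cell, the origin recognition complex, Cdc6 and Cdt1 load the ring of Mcm2 to Mcm7 onto DNA in G1, and Cdc45 and the GINS complex then turn the ring into a moving helicase. Cyclin E and the E2F factors, which the retinoblastoma protein holds back, drive entry into S phase, and many replication genes are E2F targets. Leukaemic blasts divide, whereas maturing granulocytes leave the cell cycle and shut these genes down.

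The cells were made by giving NRAS and AE9a, a truncated form of the AML1-ETO fusion protein, to hematopoietic stem cells from the bone marrow of Tet2-/- or wild-type donor mice. TET2 is an enzyme that oxidises 5-methylcytosine in DNA. They had been kept in medium with SCF, IL-3 and IL-6 and selected with G418 and puromycin, and were transplanted into NCI C57 B6.SJL (CD45.1+) mice of 6 to 8 weeks after a lethal dose of 900 cGy. CD45.2 cells, those of the donor, were enriched from the spleen, and RNA was sequenced from 2 libraries labelled Tet2 KO and 2 labelled WT. Both groups thus carry the same oncogenes. The sources used here give neither the Tet2 allele nor the promoter of the oncogenes. Nor do they say whether 2 libraries of 1 group are 2 mice; the p-values therefore rest on library-to-library spread that could be technical.

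Values are in TPM, a transcript abundance corrected for length and scaled to a fixed library total, so that levels of different genes can be compared. TPM does not state depth; from the steps of low values, 1 read in a transcript with 1 kb of usable length was worth about 0.0803 and 0.0770 TPM in the labelled Tet2 KO libraries and 0.0901 and 0.0996 TPM in WT. Between the labelled Tet2 KO libraries the variance was 5.72 times that of read sampling by a robust estimate, 38.0 times by the plain one and 185 times by the robust one in the tenth of genes with the most reads. Between the WT libraries it was 1.11, 2.07 and 1.30 times as large by the same estimates, so these were averaged and counted as 1 sample, which is assumed to vary like the labelled Tet2 KO group. All of the spread behind the tests therefore comes from the 2 labelled Tet2 KO libraries. Tet2 itself was not lower in them, at 63.7 and 68.1 TPM in the labelled Tet2 KO libraries, against 43.5 and 43.7 TPM in WT, a log2 change, on TPM + 1 as everywhere here, of 0.58 ± 0.19 (SE; limma adjusted p = 0.0171). A value for a whole gene shows no deleted exon, and every direction given here rests on the labels. ERCC spike-ins, control RNAs added to a sample, took 2.95% and 3.19% of TPM in the labelled Tet2 KO libraries and 4.66% and 4.62% in WT, and with scaling to them the median log2 change of all genes was 0.43 in place of -0.12. Whether every library got the same amount of them is not stated. The cells are labelled as AML cells, and markers of the other cells a spleen could hold were read beside them. Neutrophil markers differed more than any replication gene: 8 of 8 rose, and their summed level was 85362 and 69150.1 TPM in the labelled Tet2 KO libraries, against 1450.3 and 1474 TPM in WT. Of 10 erythroid markers 3 rose, with a summed level of 29.5 and 54.3 TPM in the labelled Tet2 KO libraries, against 4.33 and 2.57 TPM in WT, while Hbb-bs was at 0 in all 4 libraries and Klf1 was under 1 TPM. The summed level of 6 B cell, 7 T cell and 5 NK cell markers lay between 3.01 and 6.96 TPM in the labelled Tet2 KO libraries and between 3.23 and 9.38 TPM in WT for each list, with the NK marker Ncr1 at 0 in every library. In further lists, 3 of 3 tested mast cell and basophil markers and 2 of 3 megakaryocyte markers rose and 4 of 4 dendritic cell markers fell. Of 4 red pulp macrophage markers 2 fell, while Slc40a1 and Spic stood above WT in both labelled Tet2 KO libraries without passing. With ERCC scaling 2 of these 4 were called higher and 0 lower. In such bulk libraries a changed share of dividing cells and a changed RNA level per dividing cell cannot be told apart. The part that the neutrophil genes have in the replication values was not tested.

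Most of the replication machinery did not pass the test between the groups, and 4 of the 8 genes that did pass act in licensing or S phase entry. Of the 40 genes 6 rose in the labelled Tet2 KO libraries (Cdt1, E2f1, Ccne2, E2f2, Rrm2 and Rfc1) and 2 fell (Prim2 and Rpa1), at a limma adjusted p under 0.05 over all genes tested. Over all 11919 genes 22.1% were called higher and 26.7% lower, or 48.8% in either direction, against 8 of the 40 replication genes. The median log2 change of the 40 was 0.30, beside -0.12 over all genes, and 29 of them were above 0. The median size of their changes, whichever the direction, was 0.41, beside 0.61 over all genes, with a median standard error of 0.27, beside 0.25. By the values themselves, 22 genes stood higher in both labelled Tet2 KO libraries than in both WT libraries, 7 stood lower in both and 11 overlapped, where 38.4%, 48.7% and 13.0% of all genes did so.

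These results depend on single libraries, on the scaling and on the filter. Without the labelled Tet2 KO replicate 1, and with both WT libraries as samples, the median log2 change of the 40 was 0.56, beside -0.06 over all genes. Without the labelled Tet2 KO replicate 2 it was 0.076, beside -0.17. The spread in these fits then comes from the WT pair alone, so no calls are given for them. With all 4 libraries as samples 6 of the 40 were higher and 5 lower, beside 3520 and 4517 of all 11919 genes. Without the filter on low values 0 were higher and 0 lower (2 and 0 at an unadjusted limma p under 0.05), beside 123 and 295 of 18594 genes. With ERCC scaling 28 were higher and 0 lower (0 lower also at an unadjusted limma p under 0.05), where 41.5% of all genes were called higher and 12.5% lower. The median of the 40 genes then moved to 0.87, which is 0.43 above the median of all genes, as against 0.41 above it on the TPM scale.

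**Figure D1:**
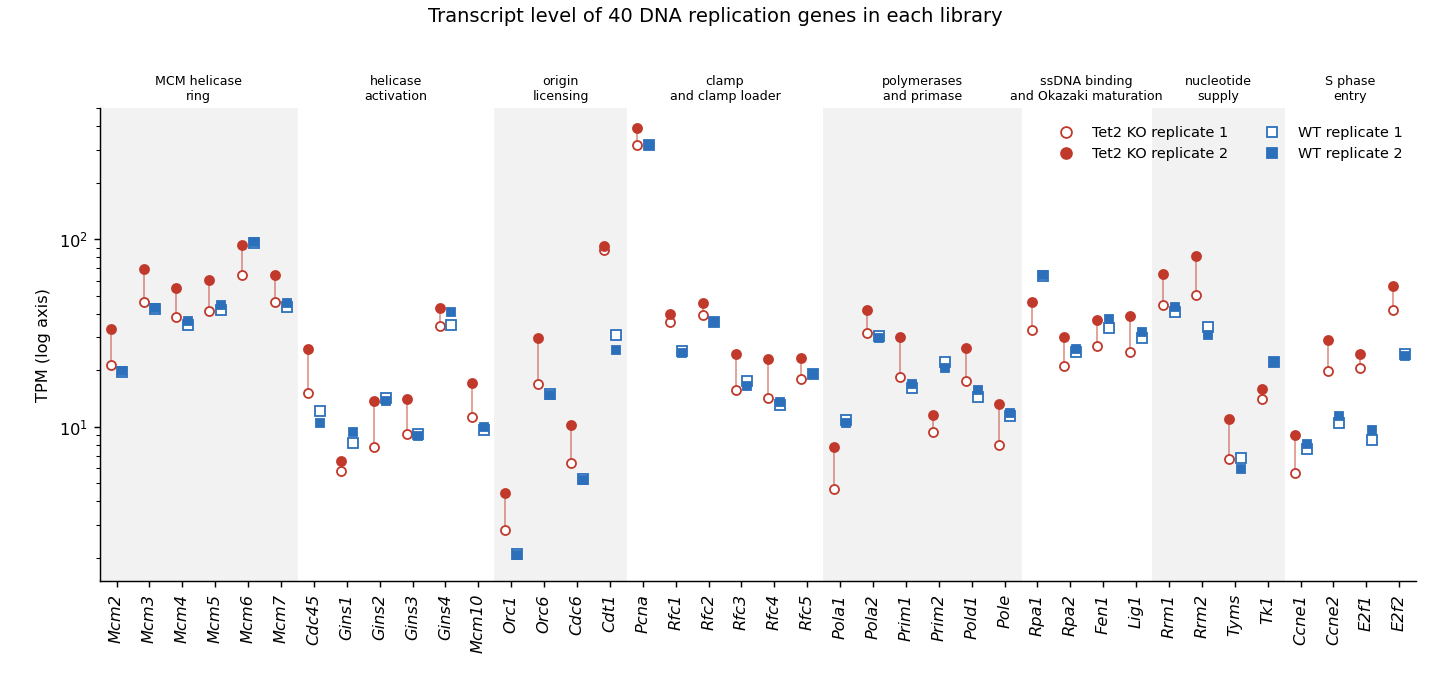
Level of each of the 40 genes in TPM (vertical log axis) in the 2 labelled Tet2 KO libraries (red circles, joined by a line; open, replicate 1; filled, replicate 2) and the 2 WT libraries (blue squares; open, replicate 1; filled, replicate 2), grouped by role. The WT squares nearly coincide, the filled red circle lies above the open one in 40 of 40 genes, and Cdt1, Ccne2, E2f1 and E2f2 stand well above WT in both.

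On the TPM scale genes of S phase entry had the largest share of calls, 3 of 4, where 48.8% of all genes were called in either direction. With ERCC scaling 3 of these 4 were also called higher. So were 6 of 6 of the clamp and its loader, 4 of 4 licensing genes and 5 of 6 of the MCM ring. Over all genes 41.5% were called higher with that scaling. E2f1 (chromosome 2, 154559407 to 154569892, minus strand, mm10 with GENCODE M21, as for all gene positions here), an activating E2F factor, was at 20.5 and 24.6 TPM in the labelled Tet2 KO libraries, against 8.53 and 9.62 TPM in WT, a log2 change of 1.22 ± 0.26 (SE; limma adjusted p = 0.000992). Its close relative E2f2 (chromosome 4, 136172394 to 136196057, plus strand) stood at 41.8 and 56.1 TPM in the labelled Tet2 KO libraries, against 24.4 and 23.8 TPM in WT, a change of 0.98 ± 0.22 (SE; limma adjusted p = 0.00199). Both were thus above WT in both libraries, with mean levels 2.48 and 2.03 times the WT mean. Ccne2 (chromosome 4, 11191351 to 11204779, plus strand), which encodes cyclin E2, a partner of the kinase Cdk2, was at 19.9 and 29.1 TPM in the labelled Tet2 KO libraries, against 10.5 and 11.5 TPM in WT, a change of 1.07 ± 0.27 (SE; limma adjusted p = 0.00454). Ccne1, which encodes the other E-type cyclin, was at 5.67 and 9.10 TPM in the labelled Tet2 KO libraries, against 7.59 and 8.14 TPM in WT; its groups overlapped, and its change of -0.11 ± 0.33 (SE; limma adjusted p = 0.7998) did not pass. The 3 calls were lost without the filter on low values.

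Among the licensing genes, Cdt1 had the largest rise of the 40. Cdt1 (chromosome 8, 122568015 to 122573554, plus strand) brings the MCM ring to the origin and is normally destroyed once S phase begins. It stood at 87.5 and 91.5 TPM in the labelled Tet2 KO libraries, against 30.8 and 25.7 TPM in WT, 3.17 times the WT mean, a change of 1.63 ± 0.19 (SE; limma adjusted p = 2.87e-06); it was lost as a call without the filter (adjusted p = 0.0592). The labelled Tet2 KO libraries also lay closest together for this gene, 0.06 apart on the log2 scale. Its partners in licensing had smaller positive changes. Cdc6, the ATPase that works with Cdt1, stood at 6.43 and 10.2 TPM in the labelled Tet2 KO libraries, against 5.25 and 5.23 TPM in WT, a change of 0.55 ± 0.33 (SE; limma adjusted p = 0.179). Orc1, the largest subunit of the origin recognition complex and the least abundant of the 40 genes, was at 2.81 and 4.44 TPM in the labelled Tet2 KO libraries, against 2.09 and 2.08 TPM in WT, a change of 0.56 ± 0.32 (SE; limma adjusted p = 0.159). Orc6, its smallest subunit, was at 16.9 and 29.6 TPM in the labelled Tet2 KO libraries, against 15.04 and 14.8 TPM in WT, a change of 0.56 ± 0.32 (SE; limma adjusted p = 0.173). All 3 were above WT in both libraries without passing the threshold.

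None of the 6 genes of the MCM ring passed (0 also at an unadjusted p under 0.05). Mcm2 was at 21.4 and 33.3 TPM in the labelled Tet2 KO libraries, against 19.7 and 19.8 TPM in WT, Mcm3 at 46.5 and 69.5 TPM in labelled Tet2 KO against 42.5 and 42.8 TPM in WT, and Mcm4 at 38.3 and 55.01 TPM in labelled Tet2 KO against 35.05 and 36.5 TPM in WT. Mcm7 was at 46.5 and 64.3 TPM in the labelled Tet2 KO libraries against 43.4 and 45.6 TPM in WT, and Mcm5 at 41.6 and 60.5 TPM in labelled Tet2 KO against 42.05 and 44.5 TPM in WT. In these 5 genes the labelled Tet2 KO replicate 1 sat near WT and replicate 2 above it, with log2 changes of 0.21 to 0.42. Mcm6 had a change of the other sign on the TPM scale: it was at 64.6 and 93.05 TPM in the labelled Tet2 KO libraries, against 96.05 and 96.9 TPM in WT, a change of -0.31 ± 0.23 (SE; limma adjusted p = 0.286), or 0.28 with ERCC scaling. The ring is built from 1 copy of each subunit, yet Mcm6 had the highest transcript level of the 6 in every library, 3.03 and 2.79 times that of Mcm2, the lowest, in the labelled Tet2 KO libraries and 4.88 and 4.89 times in WT. Its share of the summed MCM level, which no scaling of a library can alter, was 24.96% and 24.8% in the labelled Tet2 KO libraries against 34.5% and 33.9% in WT. The shares of Mcm2, Mcm3, Mcm4, Mcm5 and Mcm7 were higher than in WT in both libraries.

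The promoters of Mcm3, Mcm5, Mcm6 and Mcm7 hold letters by which E2F factors are known to bind, while that of Mcm2 had no match. RefSeq promoter windows (GRCm38.p6, the same assembly as mm10, from 250 bases before to 50 after the start site) were matched for 32 of the 40 genes; Ccne2, Gins1, Gins2, Gins4, Mcm4, Pole, Prim2 and Rfc2 had no entry. They were searched on both strands for TTTNGCGC and TTTCCCGC, with overlapping matches counted separately. Of the 32 genes 13, or 40.6%, held a match and 5 held 2 or more, against 5.30% and 0.307% of the 9116 tested genes with a promoter entry and 2.74% and 0.118% of all 27025 genes with one. The 4 windows with the most matches, ties going to the gene with the smaller p, were all of MCM genes and are printed 5′ to 3′ on the strand of the gene, with the matches in capitals. They lie at chr1:128359656-128359955 (Mcm6, minus strand), chr1:20820263-20820562 (Mcm3, minus), chr5:138171834-138172133 (Mcm7, minus) and chr8:75109259-75109558 (Mcm5, plus).
Mcm6: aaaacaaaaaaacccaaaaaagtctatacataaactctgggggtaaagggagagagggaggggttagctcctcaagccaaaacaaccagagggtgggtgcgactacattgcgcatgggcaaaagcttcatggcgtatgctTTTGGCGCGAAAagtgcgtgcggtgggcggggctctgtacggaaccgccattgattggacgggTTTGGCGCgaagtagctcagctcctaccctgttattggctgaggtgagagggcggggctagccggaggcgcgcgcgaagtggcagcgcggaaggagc
Mcm3: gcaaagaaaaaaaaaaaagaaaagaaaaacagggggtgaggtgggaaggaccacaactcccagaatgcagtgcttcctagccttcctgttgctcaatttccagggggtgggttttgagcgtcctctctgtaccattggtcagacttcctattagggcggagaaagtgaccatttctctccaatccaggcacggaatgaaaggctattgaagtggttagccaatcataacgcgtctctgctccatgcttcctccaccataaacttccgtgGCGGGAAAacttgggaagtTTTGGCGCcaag
Mcm7: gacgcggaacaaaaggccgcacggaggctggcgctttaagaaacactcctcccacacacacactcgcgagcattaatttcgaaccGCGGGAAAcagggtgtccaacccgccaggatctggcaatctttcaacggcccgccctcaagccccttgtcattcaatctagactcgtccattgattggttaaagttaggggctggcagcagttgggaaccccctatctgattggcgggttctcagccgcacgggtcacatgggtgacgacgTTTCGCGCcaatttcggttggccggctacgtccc
Mcm5: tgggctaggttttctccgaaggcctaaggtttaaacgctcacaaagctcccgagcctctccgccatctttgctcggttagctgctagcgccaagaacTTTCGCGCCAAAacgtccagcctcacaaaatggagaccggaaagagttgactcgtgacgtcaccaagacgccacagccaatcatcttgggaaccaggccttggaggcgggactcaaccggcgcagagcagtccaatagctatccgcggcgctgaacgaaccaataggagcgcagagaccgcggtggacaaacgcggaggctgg
Mcm6 and Mcm5 each carry a pair of matches that overlap, read from opposite strands, starting 110 and 106 bases upstream of the start in Mcm6 and 153 and 149 bases upstream in Mcm5. Mcm6 has a further match 47 bases upstream. Rfc3 also had 2 matches, and Cdt1, E2f2, Pola1, Pold1, Orc1, Cdc6, Gins3 and Lig1 had 1. Among the genes that passed the test, the match in Cdt1 begins 32 bases and that in E2f2 39 bases after the RefSeq start. RefSeq and GENCODE starts can differ: the E2f2 match lies before the GENCODE start at 136172394. A short stretch around each match, chosen after the values were seen, is printed from chr8:122568037-122568064 (Cdt1, plus strand) and chr4:136172303-136172323 (E2f2, plus strand).
Cdt1: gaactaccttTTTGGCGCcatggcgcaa
E2f2: cggcatatagTTTGGCGCtaa
The genes with the letters did not have the larger median change: the median log2 change was 0.30 over the 13 genes with a match and 0.38 over the 19 without, and the median difference between the labelled Tet2 KO libraries was 0.56 and 0.54. These are matches of letters, not shown to be bound sites.

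The factors that activate the ring gave no call among 6, and 1 had an unadjusted p under 0.05. Cdc45, which joins the ring at the start of S phase, was at 15.1 and 25.96 TPM in the labelled Tet2 KO libraries, against 12.1 and 10.5 TPM in WT, a change of 0.76 ± 0.32 (SE; limma adjusted p = 0.0682); it passed with ERCC scaling and when WT replicate 1 was left out. Mcm10, which helps the helicase start, was at 11.2 and 17.1 TPM in the labelled Tet2 KO libraries, against 9.61 and 9.94 TPM in WT, a change of 0.46 ± 0.30 (SE; limma adjusted p = 0.215). Both were above WT in both libraries. The 4 GINS subunits, which form a single complex, gave no call on the TPM scale with the WT libraries averaged. Gins1 was called lower with all 4 libraries as samples (limma adjusted p = 0.0380), and the other GINS subunits were not. Gins1 was at 5.81 and 6.58 TPM in the labelled Tet2 KO libraries against 8.17 and 9.34 TPM in WT, a change of -0.44 ± 0.30, and Gins2 at 7.79 and 13.8 TPM in labelled Tet2 KO against 14.2 and 13.8 TPM in WT, a change of -0.40 ± 0.33. Gins3 was at 9.12 and 14.1 TPM in labelled Tet2 KO against 9.16 and 8.94 TPM in WT, a change of 0.30 ± 0.31, and Gins4, the most abundant of the 4, at 34.3 and 43.1 TPM in labelled Tet2 KO against 34.8 and 41.03 TPM in WT. Gins4 was among the genes furthest from the threshold, with a change of 0.02 ± 0.21 (SE; limma adjusted p = 0.943). With ERCC scaling all 4 changes were above 0, at 0.08 for Gins1 and 0.15 for Gins2, which did not pass, and 0.84 for Gins3 (limma adjusted p = 0.0414) and 0.60 for Gins4 (limma adjusted p = 0.0302), which did.

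In the clamp and its loader 1 of 6 genes was called. Pcna, the ring that tethers polymerases to DNA, was the most abundant of the 40 genes in both groups, at 319 and 394 TPM in the labelled Tet2 KO libraries, against 318 and 317 TPM in WT, a change of 0.16 ± 0.24 (SE; limma adjusted p = 0.607). Rfc1 (chromosome 5, 65261850 to 65335670, minus strand), the large subunit of the clamp loader, rose, at 36.3 and 39.8 TPM in the labelled Tet2 KO libraries, against 25.5 and 24.8 TPM in WT, a change of 0.58 ± 0.21 (SE; limma adjusted p = 0.0310), a call lost without abundance trend and robust estimation and without the filter. Its small subunits did not pass: Rfc2 was at 39.3 and 45.7 TPM in the labelled Tet2 KO libraries against 36.3 and 36.2 TPM in WT, and Rfc4 at 14.3 and 22.97 TPM in labelled Tet2 KO against 13.0 and 13.6 TPM in WT. Rfc3 was at 15.8 and 24.6 TPM in labelled Tet2 KO against 17.6 and 16.4 TPM in WT and Rfc5 at 18.1 and 23.4 TPM in labelled Tet2 KO against 19.2 and 19.1 TPM in WT, with overlapping groups. The log2 changes of the small subunits ran from 0.10 to 0.42.

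**Figure D2:**
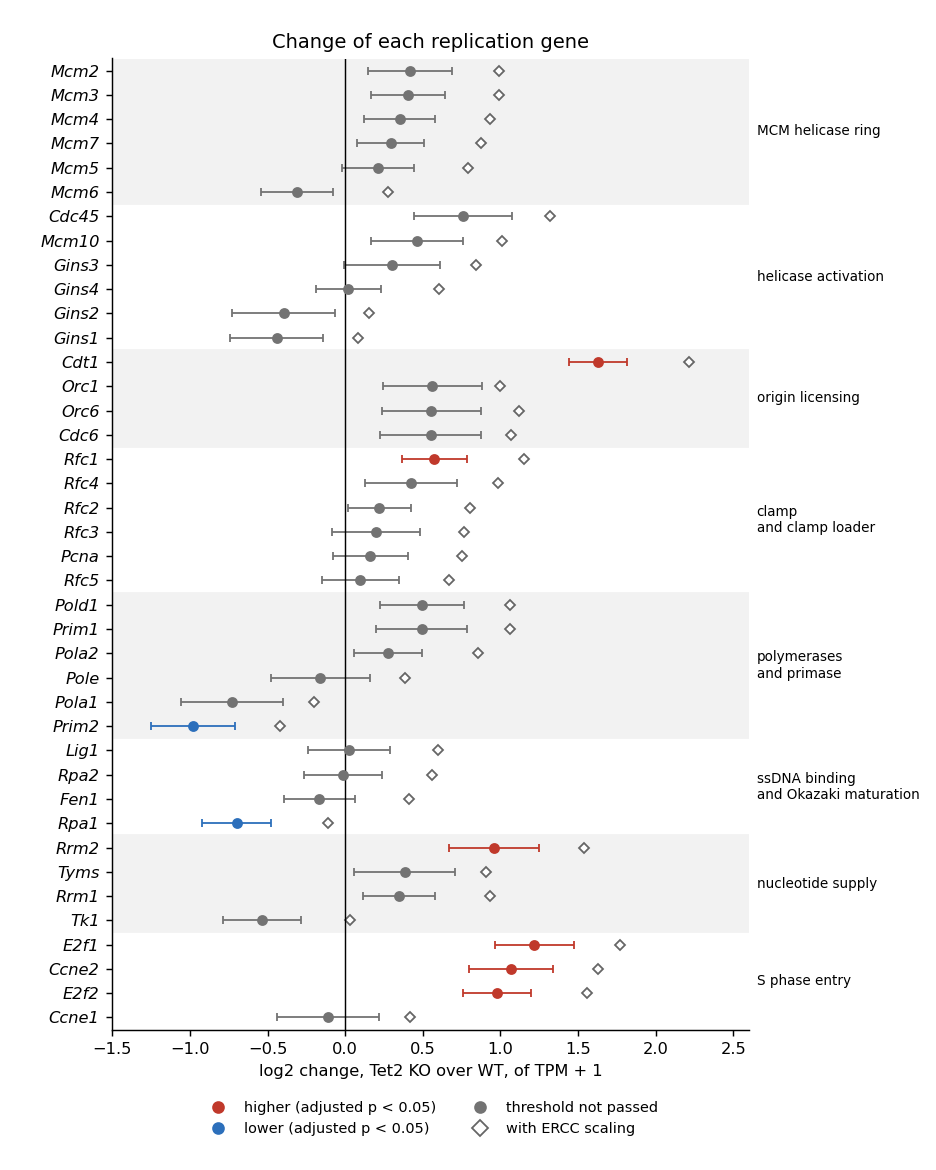
Log2 change of each gene, labelled Tet2 KO over WT, on TPM + 1 (horizontal axis), with its standard error as a bar, grouped by role (red, called higher; blue, called lower; grey, threshold not passed), and the same change after ERCC scaling (open diamonds). On the TPM scale 6 genes were called higher and 2 lower; ERCC scaling moved every point to the right, leaving Prim2, Pola1 and Rpa1 below 0.

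The primase and polymerase alpha complex, which starts each new strand with a short RNA and DNA primer, held genes that stood on opposite sides of WT. Prim2 (chromosome 1, 33453810 to 33669795, minus strand), the large primase subunit, fell, at 9.39 and 11.5 TPM in the labelled Tet2 KO libraries, against 22.3 and 20.7 TPM in WT, a change of -0.98 ± 0.27 (SE; limma adjusted p = 0.00724); with ERCC scaling it was -0.42 and did not pass. Prim1, the catalytic subunit of primase, was at 18.4 and 30.1 TPM in the labelled Tet2 KO libraries, against 16.1 and 16.8 TPM in WT, a change of 0.49 ± 0.29 (SE; limma adjusted p = 0.185). Thus the catalytic subunit was above WT in both libraries and its partner below WT in both. Pola1, the catalytic subunit of polymerase alpha, was at 4.65 and 7.78 TPM in the labelled Tet2 KO libraries, against 10.9 and 10.4 TPM in WT, a change of -0.73 ± 0.33 (SE; limma adjusted p = 0.0816), and its partner Pola2 was at 31.8 and 41.9 TPM in the labelled Tet2 KO libraries, against 30.3 and 29.6 TPM in WT, a change of 0.28 ± 0.22 (SE; limma adjusted p = 0.319). Neither Pola gene passed, although Pola1 did with all 4 libraries as samples (limma adjusted p = 0.0475). With ERCC scaling the change of Pola1 was -0.20 and did not pass, while that of Pola2 was 0.86 and did (limma adjusted p = 0.0117). Of the polymerases that extend the strands, Pold1, the catalytic subunit of polymerase delta on the lagging strand, was at 17.6 and 26.4 TPM in the labelled Tet2 KO libraries, against 14.4 and 15.7 TPM in WT, a change of 0.50 ± 0.27 (SE; limma adjusted p = 0.148). Pole, that of polymerase epsilon on the leading strand, was at 7.99 and 13.3 TPM in the labelled Tet2 KO libraries, against 11.4 and 11.9 TPM in WT, a change of -0.16 ± 0.32 (SE; limma adjusted p = 0.699), with overlapping groups.

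Of the genes of single-stranded DNA binding and Okazaki fragment processing 1 of 4 was called. Rpa1 (chromosome 11, 75298166 to 75348324, minus strand), the large subunit of the protein that coats single-stranded DNA, fell, at 33.01 and 46.5 TPM in the labelled Tet2 KO libraries, against 63.7 and 64.7 TPM in WT, a change of -0.70 ± 0.22 (SE; limma adjusted p = 0.0198). This call was lost with ERCC scaling, where the change was -0.11 (adjusted p = 0.670), with quantile normalization, without trend and robust estimation and without the filter. Rpa2, its middle subunit, was at 20.98 and 30.3 TPM in the labelled Tet2 KO libraries, against 25.2 and 25.9 TPM in WT, a change of -0.02 ± 0.25 (SE; limma adjusted p = 0.964), the furthest of the 40 from the threshold. Fen1, the nuclease that trims Okazaki fragments, was at 26.9 and 37.1 TPM in the labelled Tet2 KO libraries, against 33.6 and 37.5 TPM in WT, a change of -0.17 ± 0.23 (SE; limma adjusted p = 0.573), and Lig1, the ligase that joins them, at 24.9 and 39.1 TPM in the labelled Tet2 KO libraries, against 29.6 and 31.9 TPM in WT, a change of 0.02 ± 0.26 (SE; limma adjusted p = 0.954). In Rpa2, Fen1 and Lig1 the WT mean lay between the labelled Tet2 KO libraries.

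Deoxynucleotide supply was led by Rrm2 (chromosome 12, 24708241 to 24714146, plus strand), the regulatory subunit of ribonucleotide reductase whose level limits the enzyme in S phase. It rose, at 50.1 and 81.9 TPM in the labelled Tet2 KO libraries, against 34.1 and 30.9 TPM in WT, a change of 0.96 ± 0.29 (SE; limma adjusted p = 0.0292), a call lost with quantile normalization, without trend and robust estimation and without the filter. Rrm1, the large subunit, was at 44.6 and 65.2 TPM in the labelled Tet2 KO libraries, against 41.1 and 43.3 TPM in WT, a change of 0.35 ± 0.23 (SE; limma adjusted p = 0.239). Tyms, which makes thymidylate, was at 6.76 and 10.96 TPM in the labelled Tet2 KO libraries, against 6.79 and 5.99 TPM in WT, a change of 0.38 ± 0.33 (SE; limma adjusted p = 0.352). Tk1, the thymidine kinase of S phase cells, had a change of the other sign, at 14.1 and 15.9 TPM in the labelled Tet2 KO libraries, against 22.1 and 22.1 TPM in WT, a change of -0.53 ± 0.25 (SE; limma adjusted p = 0.0905), below WT in both libraries; with ERCC scaling it was 0.03. Tk1 was called lower with all 4 libraries as samples (limma adjusted p = 0.00916). So 3 of these genes had positive changes and Tk1 a negative one, with only Rrm2 past the threshold when the WT libraries were averaged.

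The labelled Tet2 KO libraries differed from each other in a way that ran through the whole machinery. All 40 genes were higher in replicate 2 than in replicate 1, where 65.2% of all tested genes were. The related lists described below shared this: 30 of 30 mitosis genes, 14 of 14 of chromatin assembly and 35 of 36 other replisome and origin genes. So did 22 of 23 genes of nucleotide metabolism, 12 of 13 of the checkpoint and 28 of 36 of G1 control. In 25 of them the difference was at least 0.5 on the log2 scale, where 8.19% of all genes reached it. The median difference was 0.53, beside 0.10 over all genes, 0.43 over the mitosis genes and 0.41 over both the chromatin assembly and other replisome lists. The differences of the 40 ran from 0.06 for Cdt1 to 0.77 for Orc6. The genes with the smallest differences after Cdt1 were Rfc1, Gins1 and Tk1, at 0.13, 0.15 and 0.17. Set against the WT mean, the median of the 40 was 0.07 in replicate 1 and 0.56 in replicate 2, with 24 and 33 genes above WT, where 42.9% and 47.0% of all genes were. In 9 of 40 genes the WT mean fell between the labelled Tet2 KO libraries, against 8.98% of all genes. The WT libraries differed by a median of 0.01. Neutrophil markers ran the other way, with 0 of 8 higher in replicate 2 and a median of -0.33, while 4 of 4 tested erythroid markers were higher in it. Their part in the difference was not tested.

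**Figure D3:**
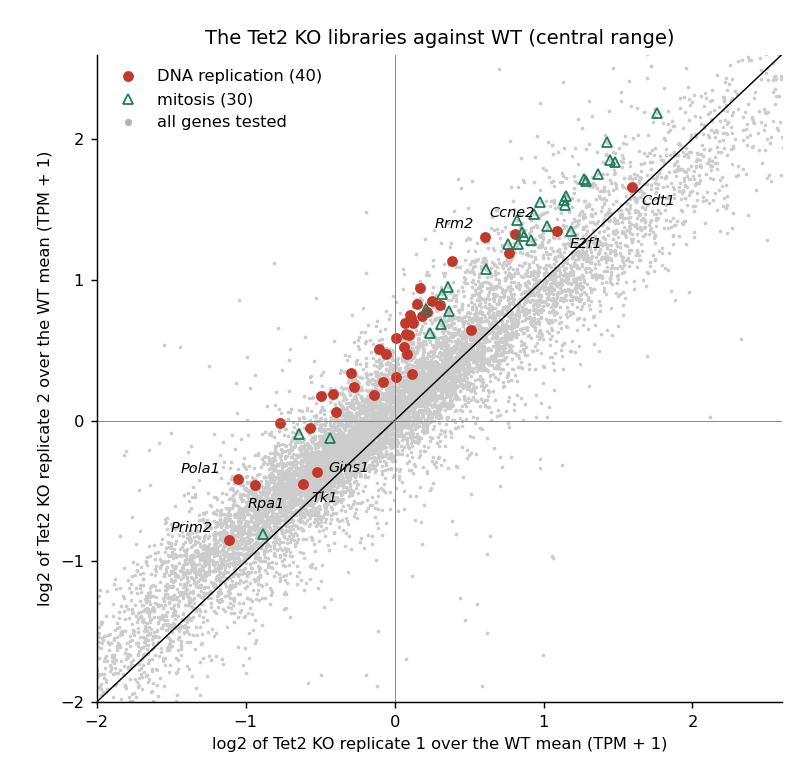
Log2 of the labelled Tet2 KO replicate 1 (horizontal) and replicate 2 (vertical) over the WT mean, on TPM + 1, for the 40 replication genes (red), 30 mitosis genes (green triangles) and all tested genes within the plotted range (grey); the line marks equal values. Every red point lies above the line, by 0.06 for Cdt1 up to 0.77 for Orc6.

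Ratios within a library do not depend on how libraries are scaled. In 7 pairs of partner or related genes the ratio stood above that of WT in both labelled Tet2 KO libraries. The pairs were picked after the values had been seen, and which gene is divided by the other sets the direction. That all 7 lie above WT is therefore not a result, and the ratios are given as descriptions. Prim1 to Prim2 was 1.96 and 2.61 in the labelled Tet2 KO libraries against 0.722 and 0.814 in WT, so that the catalytic subunit was the more abundant of the pair in the labelled Tet2 KO libraries and the less abundant in WT. Pola2 to Pola1 was 6.83 and 5.39 in the labelled Tet2 KO libraries against 2.77 and 2.84 in WT. Rpa2 to Rpa1 was 0.636 and 0.651 in labelled Tet2 KO against 0.395 and 0.399 in WT. Rrm2 to Rrm1 was 1.12 and 1.26 in the labelled Tet2 KO libraries against 0.831 and 0.714 in WT. The regulatory subunit of the reductase thus exceeded the large one in the labelled Tet2 KO libraries only. Ccne2 to Ccne1 was 3.52 and 3.20 in labelled Tet2 KO against 1.38 and 1.41 in WT. Cdt1 to Gmnn, the gene of its inhibitor geminin, was 2.62 and 1.81 in labelled Tet2 KO against 1.31 and 1.07 in WT. E2f1 to E2f2 was 0.491 and 0.437 in labelled Tet2 KO against 0.350 and 0.405 in WT, the smallest difference of the 7.

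**Figure D4:**
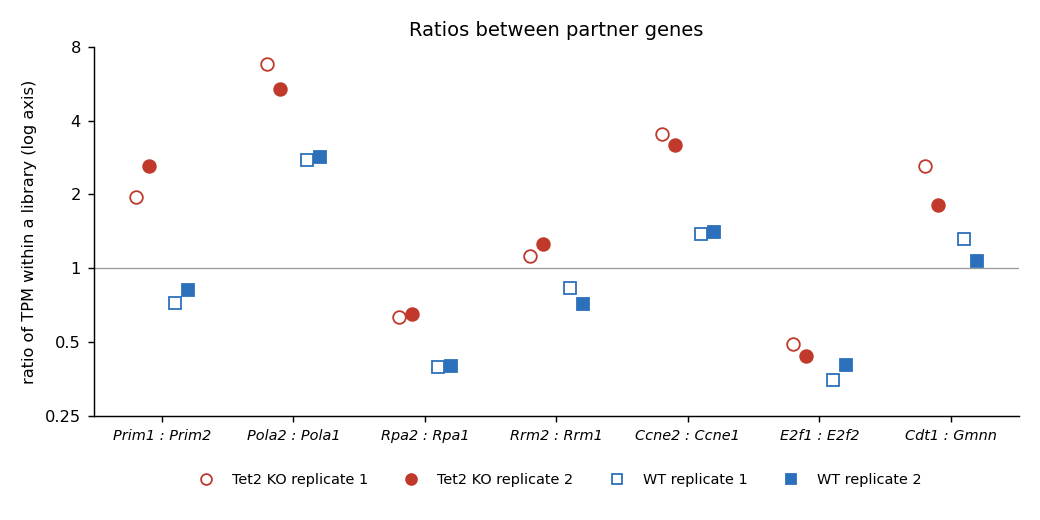
Ratio of the TPM of 7 pairs of partner or related genes within each library (vertical log axis). Red circles are labelled Tet2 KO and blue squares WT, open for replicate 1 and filled for replicate 2. Both red circles lie above both blue squares in each pair, most widely for Prim1 to Prim2 (1.96 and 2.61 in labelled Tet2 KO against 0.722 and 0.814 in WT).

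Other genes of the same process were described by lists that share no member with the 40. Of 36 tested genes of the replisome and origins 7 rose and 2 fell, with a median of 0.07. That is 19.4% higher and 5.56% lower, beside 22.1% and 26.7% of all genes. Those with the smallest p that rose were Dbf4, the activator of the kinase that fires origins (32.9 and 40.3 TPM in the labelled Tet2 KO libraries, against 17.2 and 17.2 TPM in WT), the nuclease and helicase gene Dna2 and Wdhd1, an adaptor of polymerase alpha. Pold2, the second subunit of polymerase delta (6.70 and 10.96 TPM in labelled Tet2 KO against 20.4 and 18.97 TPM in WT), and Lrwd1 fell. Of 14 genes of chromatin assembly at the fork 42.9% were called in either direction, beside 48.8% of all genes: 4 rose, Dnmt1 and Slbp with the smallest p, and 2 fell: the histone acetyltransferase gene Hat1 (-1.13 ± 0.21) and the histone chaperone gene Ssrp1 (-1.04 ± 0.22). In the replication checkpoint list of 13 genes 3 fell and 2, Mdm2 and Wee1, rose, or 38.5% in either direction. Those that fell include Trp53 and Atr, the kinase that senses stalled forks, at 5.64 and 6.92 TPM in the labelled Tet2 KO libraries against 12.9 and 13.4 TPM in WT. Of the 30 mitosis genes 21 rose and 1 fell, or 70.0% and 3.33%, with a median of 1.11. Ccnb1 was at 44.4 and 57.2 TPM in the labelled Tet2 KO libraries against 14.6 and 16.02 TPM in WT, and Ube2c, which drives mitotic exit, at 80.9 and 119 TPM in labelled Tet2 KO against 31.4 and 27.6 TPM in WT. Ccnb2 and Cdc20 were the others of smallest p, and Pttg1 was the gene that fell. Of 26 promoters of this list 1, or 3.85%, held the E2F letters, and 73.1% held TTTGAA, the letters of the CHR element known from mitotic genes, against 15.6% of the replication genes and 14.5% of tested genes.

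Among genes of G1 control, upstream of replication, 12 of 36 rose and 9 fell, with a median of 0.31. That is 58.3% called in either direction, beside 48.8% of all genes. The D-type cyclins, which bind Cdk4 and Cdk6 to inactivate the retinoblastoma protein, moved apart. Ccnd1 fell, at 8.26 and 12.8 TPM in the labelled Tet2 KO libraries, against 356 and 357 TPM in WT, and so did Ccnd2, at 19.3 and 17.6 TPM in labelled Tet2 KO against 263 and 264 TPM in WT, while Ccnd3 rose, at 202 and 189 TPM in the labelled Tet2 KO libraries against 25.2 and 26.6 TPM in WT. Ccnd3 thus made up 88.0% and 86.2% of the D-type cyclin level in the labelled Tet2 KO libraries, against 3.92% and 4.12% in WT. The inhibitor gene Cdkn2a fell too, at 1.31 and 1.63 TPM in the labelled Tet2 KO libraries, against 21.4 and 24.8 TPM in WT. Of the other 6 inhibitor genes in the list, chosen after their values were seen, Cdkn1a and Cdkn2b fell and Cdkn2d rose, with changes of -2.31 ± 0.26, -2.44 ± 0.29 and 1.05 ± 0.20. Cdkn1b, Cdkn1c and Cdkn2c stood above WT in both labelled Tet2 KO libraries without passing. Cdk2, the partner of cyclin E, rose to 91.5 and 108 TPM in the labelled Tet2 KO libraries, against 33.1 and 34.7 TPM in WT. In nucleotide metabolism outside the members 11 of 23 genes, or 47.8%, fell and 2, Shmt1 and Dut, or 8.7%, rose, with a median of -0.57. Over all genes 26.7% were called lower and 22.1% higher. Dck, the deoxycytidine kinase, was at 13.1 and 18.1 TPM in labelled Tet2 KO against 106 and 108 TPM in WT, and Samhd1, which breaks down deoxynucleotides, at 69.1 and 79.7 TPM in labelled Tet2 KO against 328 and 328 TPM in WT. Shmt2 and Mthfd2 of folate metabolism were the others of smallest p. That list is the only one of the 6 with a median below that of all genes.

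**Figure D5:**
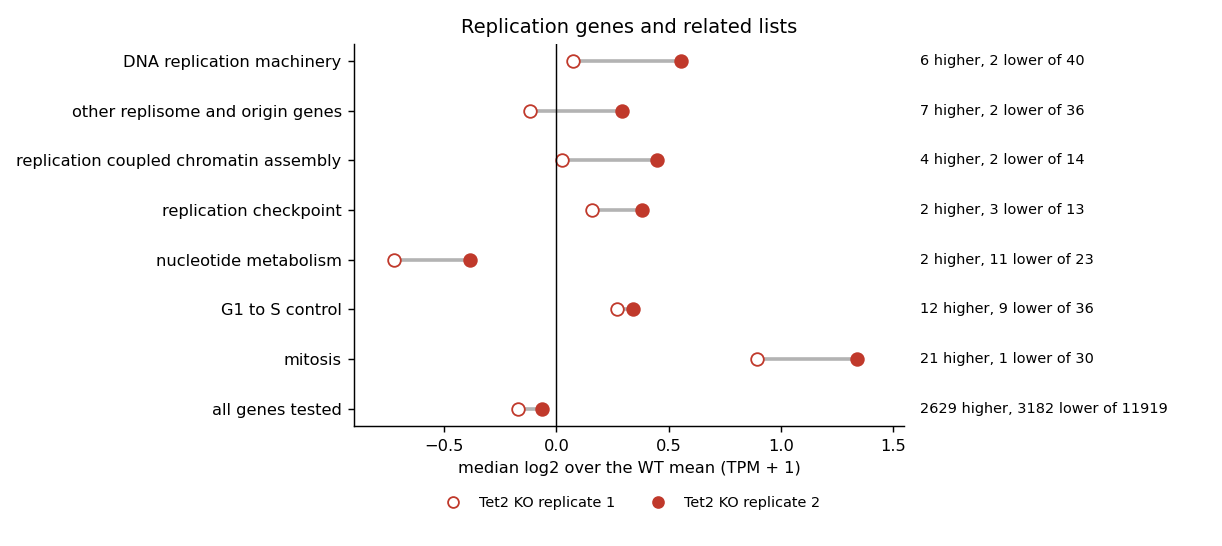
Median log2 over the WT mean, on TPM + 1, in the labelled Tet2 KO replicate 1 (open) and replicate 2 (filled) for the 40 replication genes, 6 related lists and all tested genes, with the number of genes called higher and lower at the right. Replicate 2 lies to the right of replicate 1 in each list, the replication genes run from 0.07 to 0.56, and mitosis genes lie furthest to the right.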

How the data were processed

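Gene expression was taken as TPM values deposited by the authors for 4 spleen-derived libraries. Per the submitters' processing notes, STAR, RSEM and mm10 were used (no version stated); which gene annotation they took is not given. TPM had been scaled per library over all rows, 92 ERCC rows included. The 2 WT libraries agreed to about read sampling noise over 1970 genes with 1 annotated transcript (16 beyond 5 SD, a robust variance ratio of 1.11; for the labelled Tet2 KO pair 305 of 2095 genes and a ratio of 5.72), so their mean TPM was 1 sample against 2, leaving 1 residual degree of freedom. Log2(TPM + 1) was fitted with limma 3.58.1 in R 4.3.3 with abundance trend and robust estimation over 11919 genes with at least 1 TPM in at least 2 libraries, with two-sided Benjamini-Hochberg adjusted p over all of them and a threshold of 0.05. Such log2 changes understate those of low genes. The fit and the depth estimate were tested on simulated data.

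The 40 genes and all lists were chosen with earlier results of these data known; no list was tested as a set, and counts and medians stand beside those of all genes. All 40 members are named; of each further list, up to 4 genes past the threshold with the smallest p and up to 2 past it in the other direction; other genes were chosen after their values were seen. Of the lists, 2 genes, Pclaf and Trac, had no row under those names. Errors are SE for log2 changes. The 12 alternatives were ERCC scaling, quantile normalization, a pseudocount of 0.1, no filter, a filter of 5 TPM, no trend and robust estimation, all 4 libraries as samples, a replicate block and leaving out each library.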

Additional observations from a re-analysis of the deposited data

How the results depend on the processing

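Of the 12 alternatives 1, leaving out the filter, ended the calls of Cdt1, E2f1, E2f2 and Ccne2; 2 ended those of Prim2 and Rfc1, 3 that of Rrm2 and 4 that of Rpa1. Of the 40 genes 28 rose and 0 fell with ERCC scaling, a median of 0.87, with 4942 genes higher and 1492 lower in all. Without the filter 0 of the 40 rose and 0 fell (2 and 0 at an unadjusted limma p under 0.05), with 123 and 295 in all. With quantile normalization 5 rose and 1 fell, with 2406 and 2431 in all. Without trend and robust estimation 4 rose and 1 fell, with 2305 and 2776 in all. With both WT libraries as samples 6 rose and 5 fell, with 3520 and 4517 in all. With the replicate block 14 rose and 5 fell, with 3495 and 4461 in all. The deviations of same-numbered libraries had a correlation of -0.011 over genes. Since the WT pair differed by about read sampling noise, this value cannot show whether same-numbered libraries were paired. Leaving out a WT library gave 6 to 7 rises and 2 falls among the 40, a median of 0.30, and 2651 to 2677 rises and 3192 to 3207 falls in all. Leaving out a labelled Tet2 KO library, with both WT libraries as samples, gave 8 to 29 rises and 5 to 12 falls, medians of 0.076 to 0.56, and 3974 to 4321 rises and 4987 to 5674 falls in all; the spread then comes from the WT pair alone, so that these calls do not bear on stability. Changes of sign befell only genes that had not been called. With ERCC scaling they were Ccne1 (0.41), Fen1 (0.41), Gins1 (0.084), Gins2 (0.15), Mcm6 (0.28), Pole (0.38), Rpa2 (0.56) and Tk1 (0.032). With quantile normalization they were Ccne1 (0.046), Pole (0.0020) and Rpa2 (0.059). With 1 or the other WT library left out the log2 change was -0.091 to 0.14 for Gins4, -0.030 to 0.074 for Lig1 and -0.034 to 0.0038 for Rpa2. Without the labelled Tet2 KO replicate 1 the signs of Ccne1 (0.19), Fen1 (0.059), Pole (0.17) and Rpa2 (0.24) changed, and without replicate 2 those of Gins4 (-0.13), Lig1 (-0.29), Mcm5 (-0.054), Rfc3 (-0.11) and Rfc5 (-0.078). The cause of these shifts was not tested. TPM states no depth, so no interval from read counts is given.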
